A study of Rattus norvegicus with 6 samples.

Results

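Vascular endothelial cells line blood vessels, and the genes described here encode 10 proteins by which they are commonly recognised: adhesion and junction proteins (Pecam1, Cdh5, Cldn5), growth factor receptors (Kdr, Tek, Tie1, Eng), the secreted clotting factor carrier Vwf, the surface sialomucin Emcn and the diaphragm protein Plvap. The array annotation was searched for probe sets that name a single gene of this list. It held 10 such probe sets for 9 of the 10 genes, among 31042 probe sets that were not array controls. Cdh5, which encodes VE-cadherin of endothelial adherens junctions, lacked a probe set with that single name and was not analysed here. Of the 14217 genes with a probe set of their own, 10585 passed the filter on low signals, and all 9 measured genes were among them.

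Endothelial cells receive growth signals through VEGF receptors, above all Kdr (VEGF receptor 2), and signals for vessel maturation through the angiopoietin receptor Tek (TIE2) and its relative Tie1. Adherens and tight junctions seal the vessel wall, and stored Vwf is released to tether platelets at injury. In oral mucosa the vessels lie in the connective tissue beneath the epithelium, so a piece of soft tissue holds endothelial RNA as a minor part of its total. In bulk tissue of this kind, fewer endothelial cells and less RNA per endothelial cell cannot be told apart.

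The study set soft tissue around a dental implant against mucosa that had healed without an implant. Male Sprague-Dawley rats, an outbred stock, lost the upper first molars of both sides at 4 weeks of age. In the peri-implant group (3 arrays) the left socket had received a titanium alloy implant, and the soft tissue around it was taken 4 weeks later. In the oral mucosal group (3 arrays) the tissue came from the right side, where the socket had healed without an implant. It was likewise taken 4 weeks after surgery. Tooth extraction was thus common to both groups, and tissue type and side of the mouth cannot be told apart. Whether each array stands for another rat is not stated in the labels. The p-values therefore rest on the spread among these 6 samples, and that spread may be technical.

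All signals below are log2 values as the authors deposited them, and all differences are peri-implant minus oral mucosal on that scale. The median signal of an array was 6.62 to 6.78, and arrays correlated at 0.965 to 0.981 within groups and at 0.931 to 0.945 between groups (Pearson's r across probe sets, which are not independent). A signal of 5.90, the 40th percentile of all single values, serves as a guide to dim readings. The keratinocyte genes Krt5 and Krt14 were among the bright signals of both tissues, with means of 15.18 and 15.71 in peri-implant tissue and 15.69 and 15.95 in mucosa. Each array gives 1 value per probe set, and the number of arrays limits the precision.

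The upstream sequences of the genes are shown first, to place the group on the genome. Windows from 250 bases before to 50 bases after the annotated start site were found in RefSeq (rat build GRCr8) for 6 of the 10 genes, Kdr, Tie1, Eng, Emcn, Cldn5 and Plvap. They were searched on both strands for CCGGAA and CAGGAA, which are core forms bound by ETS factors, a family active in endothelial cells. The first motif occurred in 5004 of 33469 windows of the same length and in 1 of the 6 genes (Kdr). The second occurred in 9739 (29.1%) of all windows and in 3 of the 6 (Emcn, Eng and Plvap). Either motif occurred in 13392 of all windows and in 4 of the 6. A match describes letters in the window and is not evidence of binding. The windows of 3 genes are printed, 5′ to 3′ on the gene's strand with matches in capitals: that of Kdr, the gene that passed the test below, and those of Eng and Plvap, which did not.
Kdr, chr14:32571813-32572112, plus strand: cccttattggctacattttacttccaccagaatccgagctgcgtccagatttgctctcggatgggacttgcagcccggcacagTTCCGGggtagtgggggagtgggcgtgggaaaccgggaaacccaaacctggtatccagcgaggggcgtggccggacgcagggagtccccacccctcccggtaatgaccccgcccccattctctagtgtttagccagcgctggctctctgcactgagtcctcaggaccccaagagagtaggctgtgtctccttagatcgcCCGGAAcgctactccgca
Eng, chr3:36332029-36332328, plus strand: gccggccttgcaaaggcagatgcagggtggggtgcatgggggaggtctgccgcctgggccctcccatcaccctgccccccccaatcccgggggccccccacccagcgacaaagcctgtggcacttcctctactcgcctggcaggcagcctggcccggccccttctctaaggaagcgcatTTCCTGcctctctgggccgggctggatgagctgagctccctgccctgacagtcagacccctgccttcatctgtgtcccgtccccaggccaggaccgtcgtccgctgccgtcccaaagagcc
Plvap, chr16:18231230-18231529, minus strand: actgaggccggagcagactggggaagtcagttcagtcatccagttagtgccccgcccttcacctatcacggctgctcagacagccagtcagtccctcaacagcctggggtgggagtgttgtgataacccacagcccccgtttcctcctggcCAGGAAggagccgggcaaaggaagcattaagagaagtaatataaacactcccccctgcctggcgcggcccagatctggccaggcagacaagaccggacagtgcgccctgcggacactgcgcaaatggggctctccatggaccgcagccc

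Differences of the endothelial genes between the tissues mostly did not pass the threshold. Of the 9 measured genes, Kdr passed the threshold and was higher in peri-implant tissue, and the other 8 did not pass (limma with Benjamini-Hochberg adjustment over 18625 probe sets, threshold 0.05). That is 11.1% of the members, where 26.1% of all genes tested were called, and 15.2% were called higher. Among genes whose mean signal lay in the same range as the members' 18.1% were called, and 12.9% higher. The differences of the 9 genes ran between -0.19 for Cldn5 and 0.94 for Vwf, with a median of 0.32 beside 0.03 for all genes tested. They were above 0 for 7 of the 9 genes, and 54.5% of all genes were above 0. The list's summed signal was 10.72 to 10.83 on the peri-implant arrays and 10.37 to 10.53 on the mucosal arrays. These ranges did not overlap. Most of the 15 companion lists described below also had summed ranges without overlap, some higher in peri-implant tissue and some lower.

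**Figure D1:**
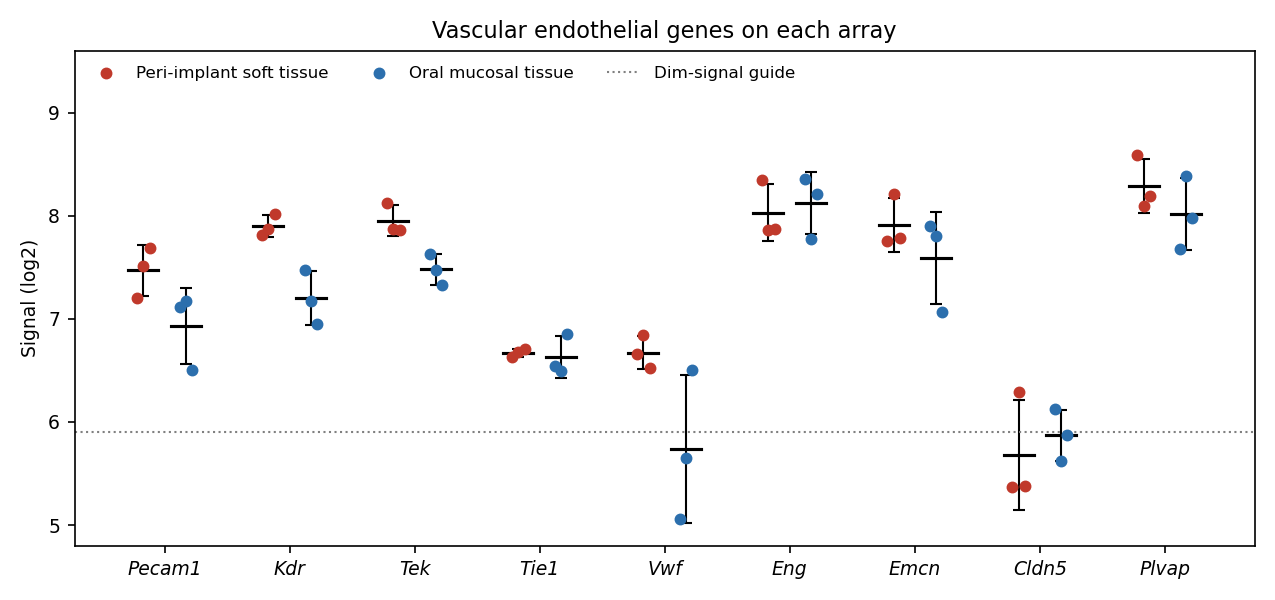
Log2 signal of each measured vascular endothelial gene on each array, with peri-implant arrays in red and mucosal arrays in blue; bars give the mean and SD (n = 3 each) and the dotted line is the guide of 5.90 for dim readings. Pecam1, Kdr, Tek and Vwf show no overlap between the groups, and Tie1, Eng, Emcn, Cldn5 and Plvap do.

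Among the receptors, Kdr, the main signalling receptor for VEGF-A on endothelium, had signals of 7.81, 7.87 and 8.02 on the peri-implant arrays, against 7.47, 7.17 and 6.95 on the mucosal arrays. Every peri-implant value lay above every mucosal value, with a gap of 0.34. The means were 7.90 ± 0.11 in peri-implant tissue and 7.20 ± 0.26 in mucosa (SD, n = 3 each), a difference of 0.70 (SE 0.22), or 1.63-fold (limma adjusted p = 0.0327). The call stood near the threshold, since with this SE a difference of 0.64 was the smallest that would pass. It was lost without any 1 of the 3 peri-implant arrays (adjusted p = 0.0626, 0.0908 and 0.112 for arrays 1, 2 and 3) and without mucosal array 2 or 3 (adjusted p = 0.0608 and 0.0832), and held without mucosal array 1 (adjusted p = 0.0250). The difference itself stayed between 0.58 and 0.84 in these fits. A further probe set for Kdr was below the dim guide on all 6 arrays, at 4.89, 5.0 and 2.57 in peri-implant tissue and 4.44, 5.77 and 3.52 in mucosa, and was not tested. Averaging it with the brighter probe set gave a difference of 0.14 (limma adjusted p = 0.869).

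Tek, the receptor tyrosine kinase for angiopoietins, had signals of 8.12, 7.87 and 7.86 in peri-implant tissue, against 7.63, 7.47 and 7.33 in mucosa. These groups did not overlap either, and were 0.23 apart at their nearest values. The difference of 0.47 (SE 0.19, 95% interval 0.05 to 0.89) did not pass after adjustment (limma adjusted p = 0.106), and 0.58 was the smallest difference that would have passed. Tie1, an orphan receptor that partners with TIE2, had signals of 6.63, 6.68 and 6.71 in peri-implant tissue and of 6.54, 6.49 and 6.85 in mucosa. All 3 peri-implant values fell inside the mucosal range, and the difference of 0.04 (SE 0.28) had an interval of -0.57 to 0.66 (limma adjusted p = 0.935). Eng, or endoglin, a co-receptor for ligands of the TGF-β and BMP family, had signals of 8.35, 7.86 and 7.87 in peri-implant tissue and of 8.36, 7.77 and 8.21 in mucosa. Its groups overlapped over almost their whole range, with a difference of -0.09 (SE 0.21, 95% interval -0.54 to 0.36, limma adjusted p = 0.810).

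Of the adhesion and junction genes, Pecam1 (CD31), an adhesion molecule of endothelial contacts that platelets and leukocytes also carry, had signals of 7.20, 7.51 and 7.69 in peri-implant tissue, against 7.11, 7.17 and 6.50 in mucosa. The groups lay only 0.03 apart at their nearest values, and mucosal array 3 stood below the rest. The difference of 0.54 (SE 0.27, 95% interval -0.04 to 1.12) did not pass (limma adjusted p = 0.178), and without mucosal array 3 it was 0.33. Cldn5, the tight junction claudin typical of endothelium, was dim, at 5.37, 6.29 and 5.38 in peri-implant tissue and 6.13, 5.62 and 5.87 in mucosa. Of its 6 values 4 were below 5.90, 2 in each tissue, and its interval of -1.12 to 0.73 was the widest of the 9. Its difference of -0.19 turned to 0.05 when values below 5.90 were raised to 5.90, so no direction is given for it.

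Vwf, von Willebrand factor, had signals of 6.66, 6.84 and 6.52 in peri-implant tissue, against 5.06, 5.65 and 6.50 in mucosa. The peri-implant arrays were close together, while the mucosal arrays spread over 1.44 and mucosal array 3 came within 0.02 of the lowest peri-implant value. Mucosal arrays 1 and 2 were below 5.90. The difference of 0.94 (SE 0.40, 95% interval 0.06 to 1.81) was the largest of the 9 and did not pass (limma adjusted p = 0.123). Leaving out mucosal array 3 gave 1.32 and a call (limma adjusted p = 0.0327), while the adjusted p over all its alternatives ran between 0.0327 and 0.330. Emcn, endomucin, a sialomucin of capillary and venous endothelium, had signals of 7.75, 8.21 and 7.78 in peri-implant tissue and of 7.90, 7.80 and 7.07 in mucosa. Mucosal array 3 was again the lowest, the other 5 values overlapped, and the difference was 0.32 (SE 0.25, limma adjusted p = 0.396), or 0.06 without mucosal array 3. Plvap, which forms the diaphragms of endothelial fenestrae and caveolae, had signals of 8.59, 8.09 and 8.19 in peri-implant tissue and of 7.68, 8.39 and 7.98 in mucosa. The groups overlapped, with a difference of 0.27 (SE 0.21, 95% interval -0.18 to 0.73, limma adjusted p = 0.398).

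Within the 9 genes the groups did not overlap for 4 (44.4%), Pecam1, Kdr, Tek and Vwf, all with the peri-implant arrays above. Over all genes tested the groups did not overlap for 41.9%, and for 24.0% the peri-implant arrays lay above. Peri-implant array 1 had the lowest value of its group for 5 members, and mucosal array 3 had it for 4, Pecam1, Kdr, Tek and Emcn. The SE of the 9 genes was 0.19 to 0.43 with a median of 0.25, against a median of 0.13 over all genes tested. Differences of 0.58 to 1.26, depending on the gene, were the smallest that would have passed.

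**Figure D2:**
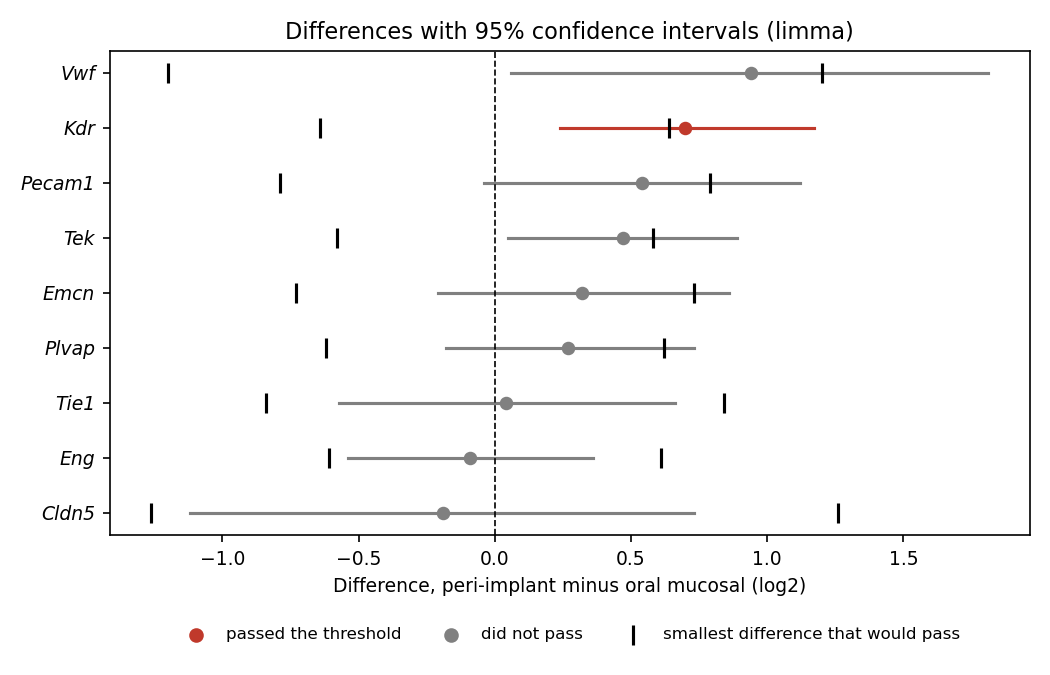
Difference of each measured vascular endothelial gene, peri-implant minus oral mucosal on the log2 scale (points), with its 95% interval from limma (lines) and the smallest difference that would pass the threshold in either direction (black ticks). Kdr, at 0.70, lies just beyond its tick of 0.64, and the other 8 genes lie within theirs.

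The ligands and co-receptors around Kdr moved in both directions. Of 8 tested genes of the VEGF list 3 were higher and 1 lower, with a median of 0.42. Vegfa, the ligand of Kdr, had signals of 11.22, 10.79 and 10.95 in peri-implant tissue, against 10.36, 10.32 and 10.41 in mucosa, groups that did not overlap. It was higher by 0.62 (SE 0.10, limma adjusted p = 5.82e-04), and this call held with any 1 array left out. Flt1, VEGF receptor 1, was higher by 0.81 and Vegfc, a ligand of lymphatic growth, by 0.44 (limma adjusted p = 0.0484 and 0.0424), and Nrp2, a co-receptor for VEGF-C, fell by 0.39 (limma adjusted p = 0.0255). These 3 calls were weak: that of Flt1 was lost without any array but mucosal array 2 (adjusted p = 0.0539 to 0.148), that of Vegfc without any but mucosal array 3 (0.0566 to 0.130), and that of Nrp2 without peri-implant array 1 or 2 or mucosal array 1 (0.0700 to 0.123). The mean of all probe sets of Nrp2 gave -1.38, which also passed. Placental growth factor, Pgf, had means of 5.84 ± 0.73 in peri-implant tissue and 6.89 ± 0.23 in mucosa, a difference of -1.05 that did not pass (limma adjusted p = 0.0758), although it passed under 4 alternatives. These were the second probe set (-1.35, adjusted p = 0.00973), the mean of all its probe sets (-1.20, 0.0330), dim values raised to 5.90 (-0.76, 0.0456) and the fit without peri-implant array 1 (-1.42, 0.0269). Nrp1, the co-receptor of Kdr, had means of 8.57 in peri-implant tissue and 8.46 in mucosa and did not pass.

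Of 6 tested genes of the angiopoietin list 1 was higher and 0 were lower by limma, with a median of -0.09. The called gene was Angptl4, an angiopoietin-like regulator of lipoprotein lipase that is not a TIE ligand, with means of 8.23 ± 0.10 in peri-implant tissue and 6.0 ± 0.54 in mucosa (difference 2.24, limma adjusted p = 9.05e-05). Angpt2, the context-dependent TIE2 ligand, had means of 5.60 ± 0.38 in peri-implant tissue and 6.0 ± 0.69 in mucosa and did not pass. Angpt1, the activating ligand, was below the filter, with 4.21, 5.04 and 4.4 in peri-implant tissue and 1.22, 0.00 and 1.02 in mucosa. All 6 values were under the dim guide. Ptprb, the phosphatase VE-PTP that restrains TIE2, had means of 7.42 in peri-implant tissue and 7.55 in mucosa (limma adjusted p = 0.730).

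Around Eng, 3 of 14 tested genes were higher and 3 lower, with a median of 0.17. The ligand gene Tgfb3 was higher by 0.81 and Tgfb2 fell by 0.71 (limma adjusted p = 3.29e-05 and 0.00698), and the call of Tgfb2 was lost without the variance trend (0.0514). Smad1, which carries BMP signals, was higher by 0.68 and Id3, a common target of BMP signalling, by 0.43 (limma adjusted p = 1.21e-04 and 9.65e-04). Id1, another such target, had means of 13.60 in peri-implant tissue and 13.59 in mucosa (adjusted p = 0.907). The type I receptor Acvrl1 (ALK1) had means of 6.13 in peri-implant tissue and 5.79 in mucosa and did not pass. The remaining lower genes, named to complete the count after their values were seen, were the type II receptor Bmpr2, which fell by 0.36, and the inhibitor Smad6, which fell by 0.69. The call of Bmpr2 was lost without peri-implant array 2 or 3 or mucosal array 1 or 3 (adjusted p = 0.0684 to 0.163), and that of Smad6 without any 1 of the 6 arrays (0.0759 to 0.134). A second probe set of Smad6 gave 0.24, and the mean of the probe sets of Bmpr2 gave -0.71 with no call. Tgfbr2, a receptor partner of endoglin, lacked a probe set of its own name here.

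Other genes enriched in endothelium went both ways as well. Of 25 tested 6 were higher and 3 lower, and 16 did not pass; the median was 0.37. Their summed signal was 13.29 to 13.41 on the peri-implant arrays and 13.46 to 13.71 on the mucosal arrays. The sum was thus lower where most single differences were above 0. It adds linear signals, so bright genes weigh most. The brightest in mucosa was Cav1, with means of 10.61 in peri-implant tissue and 12.77 in mucosa. A sum without Cav1 was not computed. The higher genes were Tspan7 (1.68), Selp, or P-selectin (1.32), Icam2, an adhesion molecule of resting endothelium (1.26), Thbd, the anticoagulant receptor thrombomodulin (1.10), Ecscr (1.05) and Flt1 (0.81). Icam2 had 7.75, 7.72 and 7.68 in peri-implant tissue, against 6.29, 6.69 and 6.40 in mucosa, and was called in every alternative that tested it (limma adjusted p up to 0.0143). With the mean of their probe sets the differences of Thbd and Selp became 0.38 and 0.40 and were not called. Ecscr was lost without any array but mucosal array 3 (adjusted p = 0.0535 to 0.108).

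The lower genes were Cav1, caveolin-1, at 10.48, 10.59 and 10.76 in peri-implant tissue and 12.91, 12.55 and 12.86 in mucosa, which fell by 2.16 (limma adjusted p = 7.60e-09), Esm1, a proteoglycan of endothelial tip cells, which fell by 1.43, and the water channel Aqp1, which fell by 0.74. Esm1 and Ecscr were named after their values were seen. Cav1 and Aqp1 are also made by other cells of the tissue. Which cells gave the signals was not tested, for the higher genes of this list as for the lower ones. Esam, Egfl7 and Nos3, an endothelial adhesion molecule, a secreted vessel protein and endothelial nitric oxide synthase, had differences of 0.53, -0.18 and 0.36, none past the threshold. Cd34 lacked a probe set of its own name here.

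Transcription factors of endothelial cells numbered 16 tested, of which 6 were higher and 1 was lower; the median was 0.34. Lmo2 was higher by 1.09, Fli1 by 1.01 and Mef2c by 1.23 (limma adjusted p = 0.00188, 0.00398 and 0.00980), and these 3 also act in blood cells. Ets2, Epas1 and Nr2f2 were higher by 0.34, 0.47 and 0.69, and Klf4, which is strong in epithelium, fell by 0.36. Several of these calls depended on the arrays used: that of Mef2c and that of Klf4 were lost without peri-implant array 2 (adjusted p = 0.0737 and 0.0679), that of Epas1 without peri-implant array 2 or 3 or mucosal array 1 (0.0544 to 0.0834), and that of Nr2f2 without peri-implant array 1 or 3 or mucosal array 1 (0.0570 to 0.0596). The mean of the probe sets of Nr2f2 gave -0.17, and the second probe sets of Mef2c and Epas1 gave 0.76 and 0.27 with no call. Quantile normalisation gave -0.22 for Klf4, still called. Fli1 was not called with the mean of its probe sets (adjusted p = 0.149), nor Ets2 without the variance trend (0.0706). Epas1, Nr2f2 and Klf4 were named after their values were seen. The more endothelium-restricted Sox18 and Sox17 had differences of 0.42 and 0.09 and Erg, below the filter, had means of 5.50 in peri-implant tissue and 5.54 in mucosa; none was called.

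For 14 junction partners of VE-cadherin and claudin-5 the median was -0.07, and 1 was higher and 2 lower. Vcl, vinculin, fell by 0.62 and Jup, plakoglobin, by 0.47 (limma adjusted p = 1.43e-04 and 0.00236). Ocln, occludin, was higher by 0.23, a call lost without any array but mucosal array 3 (adjusted p = 0.0767 to 0.136), and a second probe set gave -0.24. Epithelial cells also express all 3. Among haemostasis genes around Vwf, 4 of 8 were higher and 2 lower, with a median of 0.60. Plat, tissue plasminogen activator, was higher by 2.43 and Tfpi, an inhibitor of coagulation, by 2.34 (limma adjusted p = 3.04e-10 and 3.31e-09), besides Thbd and Selp. F3, tissue factor, fell by 0.85 and Pros1, protein S, by 0.55. Plat, Tfpi and F3 had means of 12.95, 10.87 and 11.31 in peri-implant tissue, where that of Vwf was 6.67. Which cells gave these signals was not tested. The call of Pros1, named after its values were seen, was lost without peri-implant array 1 (adjusted p = 0.0527).

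A list of adhesion molecules for leukocytes on endothelium, activated or resting, had 3 of 6 tested genes higher and 0 lower by limma, with a median of 1.25. Icam1, the ligand of leukocyte integrins, was higher by 1.55 (limma adjusted p = 4.88e-07), with Icam2 and Selp as above. Vcam1, named after its values were seen, fell below the filter on the mean over all arrays. It had 7.18, 7.03 and 7.23 in peri-implant tissue and 1.92, 3.91 and 4.33 in mucosa, where every value was under the dim guide. Its difference was 3.76 as deposited and 1.25 with values raised to 5.90 (limma adjusted p = 0.00295 when no filter was applied). Icam1 and Vcam1 are also made by other activated cells.

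**Figure D3:**
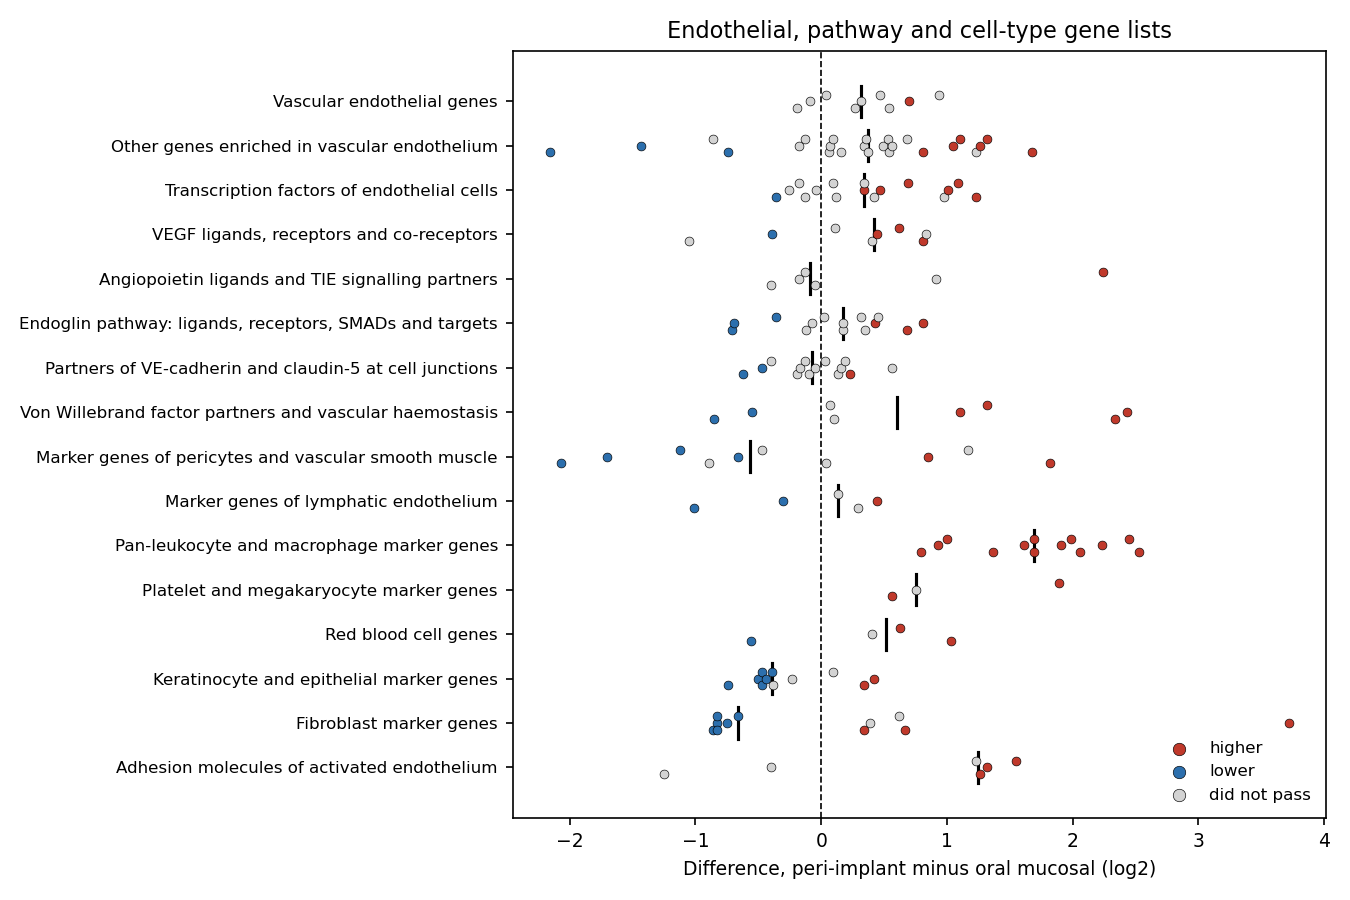
Difference of each tested gene (peri-implant minus oral mucosal, log2) in the vascular endothelial list and in 15 lists of pathways and cell types; red genes were higher, blue lower, grey did not pass, and the black bar is the list's median. Leukocyte markers lie to the right of 0 throughout, while the endothelial lists spread on both sides.

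Other cells of the vessel wall were measured alongside. For 10 tested pericyte and smooth muscle genes the median was -0.56, and 4 were lower and 2 higher. Cspg4, the pericyte proteoglycan NG2, fell by 2.07, Ndufa4l2 by 1.70, Pdgfrb by 1.12 and Acta2 by 0.66, and Mylk and the pericyte gene Rgs5 were higher by 1.82 and 0.85. Fibroblasts share Pdgfrb, and its second probe set fell by 0.48 and was not called. The call of Acta2, named after its values were seen, was lost without peri-implant array 2 or 3 or mucosal array 2 or 3 (adjusted p = 0.105 to 0.152). Of 5 tested genes of the lymphatic list 1 was higher and 2 were lower. The higher gene was Vegfc, a ligand of lymphatic growth rather than a marker of the cells, and its call was weak, as above. Lyve1 fell by 1.01 and Pdpn by 0.30, and the call of Pdpn was lost without any array but mucosal array 2 (adjusted p = 0.0743 to 0.0983). Pdpn was bright, with means of 10.52 in peri-implant tissue and 10.82 in mucosa. Which cells gave the signals of Lyve1 and Pdpn was not tested. Prox1, the defining lymphatic transcription factor, was below the filter, with means of 5.23 in peri-implant tissue and 5.21 in mucosa. So was the VEGF-C receptor Flt4, with 5.12 in peri-implant tissue and 3.47 in mucosa.

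Called leukocyte and platelet markers were higher in peri-implant tissue, while called red cell genes went both ways. The leukocyte and platelet markers bear on Pecam1 and Vwf, which platelets also contain, and on Pecam1, which leukocytes carry. Pan-leukocyte and macrophage markers were higher in 13 of 13 tested, with a median of 1.69, and their summed signal was 14.29 to 14.35 on the peri-implant arrays and 12.72 to 12.76 on the mucosal arrays. Fcer1g, Mpeg1, Cd53 and Coro1a were higher by 1.99, 1.69, 1.91 and 2.53, Ptprc (CD45) by 1.69 and the integrin chain Itgb2 by 1.37. The mean of the probe sets of Mpeg1 gave 0.24 and no call. Of the platelet genes Pf4 and Ppbp were higher by 1.89 and 0.56 among 3 tested, with a summed signal of 12.09 to 12.15 in peri-implant tissue and 11.32 to 11.38 in mucosa, while Gp9 was below the filter, with means of 3.93 in peri-implant tissue and 2.60 in mucosa. Red cell genes were higher in 2 of 4 (Alas2 by 0.63, Slc4a1 by 1.03) and lower in 1 (Bpgm, which fell by 0.56), with summed signals of 15.75 to 16.20 in peri-implant tissue and 15.38 to 15.80 in mucosa. The call of Slc4a1 was lost without peri-implant array 2 or 3 or mucosal array 1 or 2 (adjusted p = 0.0567 to 0.154), and its second probe set gave -0.01. The part of these cells in the values of Pecam1 and Vwf was not tested.

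Genes of fibroblasts and epithelium were set beside these. For 11 fibroblast genes the median was -0.66, and 6 were lower and 3 higher. Their summed signals were 15.32 to 15.38 in peri-implant tissue and 15.98 to 16.11 in mucosa. Col1a1, Col3a1, Lum and Col1a2 fell by 0.83, 0.83, 0.86 and 0.75. The higher members, named after their values were seen, were Dcn (0.34), Dpt (0.67) and Mfap5 (3.72). The call of Dpt was lost without peri-implant array 2 (adjusted p = 0.0526), its second probe set gave 0.38 with no call, and without mucosal array 2 it was 0.44 and called. Of 11 keratinocyte and epithelial genes, whose median was -0.39, 6 were lower and 2 higher. Their summed signals overlapped, at 18.19 to 18.54 in peri-implant tissue and 18.42 to 18.83 in mucosa. Cldn1, Krt5 and Jup fell by 0.74, 0.50 and 0.47, and Epcam and Cdh1 were higher by 0.42 and 0.34. Cdh1 was named after its values were seen, and the mean of its probe sets gave 0.01 and no call. Their part in the endothelial values was not tested.

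**Figure D4:**
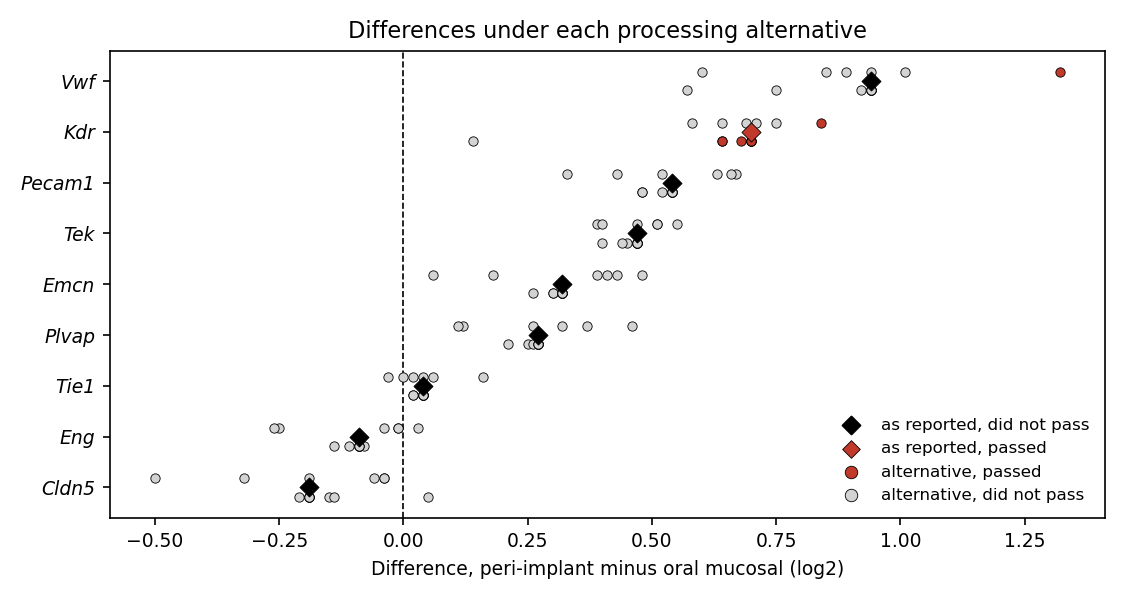
Difference of each measured vascular endothelial gene (peri-implant minus oral mucosal, log2) as reported (diamonds) and under each alternative (circles; the upper row of a gene leaves out 1 array, the lower row changes the processing), with red where the adjusted p was under 0.05. Vwf, Pecam1, Tek, Emcn and Plvap stay above 0 throughout, Tie1, Eng and Cldn5 fall on both sides, and only Kdr and 1 fit of Vwf are red.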

How the data were processed

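Biotin-labelled RNA from each sample was hybridised to its own array, per the labels' protocols. The table deposited by the authors holds log2 signals. Each array had been scaled, as the values show: after removal of the lowest and highest 2%, linear signals averaged 500.2 on every array. The sources used here name no software or background method. No detection calls were used. Gene names came from the array annotation, updated through gene numbers of RefSeq GRCr8 (20758 of 20826 probe sets with a single symbol matched). Where a gene had several probe sets, the brightest on average was taken.

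The values were analysed as deposited. Probe sets whose mean exceeded the 40th percentile, 5.68, were tested (18625 of 31042, after 57 controls were removed) by limma (version 3.58.1, R version 4.3.3), whose two-sided moderated test let the variance follow the signal level (lmFit, then eBayes). Benjamini-Hochberg adjustment covered all tested probe sets. The fit was tested on simulated data. The smallest difference that would pass was computed from a gene's SE and the largest p-value called, 0.0112.

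The members and the 15 companion lists (192 distinct genes, 16 of them in more than 1 list, 171 with a probe set) were chosen with earlier results of these data known. Genes named are all members, up to 4 called genes with the smallest p per list, and a fixed set of direct partners; others are marked as named after their values were seen. Lists are described by counts, medians and summed linear signals on the log2 scale, with no list test. Of 17 alternatives, 6 leave out 1 array each; the others change the filter, the variance model, the normalisation, the treatment of dim values, the choice of probe set and the block.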

Additional observations from a re-analysis of the deposited data

How the results depend on the processing

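Over 17 alternatives the median difference of the 9 genes stayed between 0.26 and 0.48. The count of called members was 1, and 0 with the filter at the 60th percentile (7.57, above the mean of Kdr), with the mean of all probe sets or with the second probe set; with 1 array left out it was 0 to 1, and without mucosal array 3 the called member was Vwf in place of Kdr. The genes called over the whole array numbered 2767, and 1816 without the variance trend. Kdr was 0.14 with the mean of its probe sets (limma adjusted p = 0.869) and 0.58 to 0.84 with 1 array left out. With 1 array left out, Vwf was 0.60 to 1.32, Tie1 -0.03 to 0.16 and Eng -0.26 to 0.03, so the direction of Tie1 and Eng is not settled. Cldn5 turned to 0.05 with dim values raised to the guide. Pecam1, Tek, Emcn and Plvap kept their direction and stayed uncalled in every alternative that tested them.

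Among 75 companion genes, 1112 of 1236 comparisons kept direction and side of the threshold, 110 lost a call, 4 gained it and 10 changed direction. The counts of called genes per list were less steady: of 30 such counts, 12 stayed within 1.5 times under every alternative. Higher red cell genes numbered 0 to 3, lower epithelial genes 3 to 7 and higher VEGF list genes 1 to 3. Higher leukocyte markers numbered 10 to 13. With 1 array left out Id1 was -0.02 to 0.07, Sox17 -0.26 to 0.43 and Nos3 -0.06 to 0.58. Median centring gave Id1 -0.003, and raised dim values gave Sox17 -0.16. The mean of all probe sets gave Ocln -0.00096 and Nr2f2 -0.17, and the second probe set gave Ocln -0.24, Slc4a1 -0.01 and Smad6 0.24. The causes were not tested.

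The labels do not say whether arrays with the same number in their titles came from the same rat. Same-numbered arrays correlated in their deviations from the group means at 0.01, -0.08 and 0.03, which gives no sign of pairing and does not show that no rat was shared. With the replicate block Kdr stayed called, at 0.70 (limma adjusted p = 0.0487), and the count of called members stayed at 1. Among the companion genes named, the block lost the calls of Flt1 (adjusted p = 0.0665), Smad6 (0.0739), Ocln (0.0582) and Acta2 (0.0513). Signal over background limits Cldn5, Vwf and the second probe set of Kdr. Groups of 3 are too small for an outlier test.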
